A study of Caenorhabditis elegans with 2 samples.

Results

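The 26S proteasome is the large protease that degrades proteins tagged with ubiquitin. Its barrel-shaped core particle is built of alpha subunits (pas genes in Caenorhabditis elegans), which gate the entrance, and beta subunits (pbs genes), some of which carry the active sites. The regulatory particle that caps it holds a ring of AAA ATPases (rpt genes), which unfold substrates, and non-ATPase subunits (rpn genes) that recognise ubiquitin, remove it or form the lid. When the worm proteasome is impaired, the transcription factor SKN-1 is known to raise the expression of these genes together, and the same gene provides a maternal factor needed in early embryos to specify blastomere fate. The genes described here are the protein-coding genes of the Ensembl annotation whose names are pas, pbs, rpt or rpn with a number. They were chosen by name alone, under a rule set with earlier results of these data known. They number 33 of 19973 protein-coding genes, with 7 core alpha, 7 core beta, 6 ATPase and 13 non-ATPase subunits.

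Peaks of the protein F13C5.2, which RefSeq names a bromo domain-containing protein (the domain is a module that binds acetylated lysine), were mapped by chromatin immunoprecipitation with sequencing (ChIP-seq) in early embryos. Embryos of strain OP605, genotype unc-119(tm4063) III with the transgene wgIs605, were taken 1 hour after synchronization by egg bleaching, as a mix of sexes. The transgene encodes F13C5.2 with a C-terminal GFP-FLAG tag, the antibody was against GFP, and the single group has 2 biological replicates, labelled 2 and 3. Both replicates share this 1 strain. Peaks of untagged worms were not analysed here, and the labels do not say whether the endogenous F13C5.2 gene was still active. F13C5.2 itself had a promoter peak of IDR rank 22 (signal 355).

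The deposited lists on genome build ce11 were used as follows. Each replicate has 30000 ranked peaks, a pooled list has another 30000 called on both replicates together, and the list passing the irreproducible discovery rate (IDR) procedure has 1850. All 1850 IDR peaks hold the same rank in the pooled list, so the IDR list is its upper end, with signal scores from 77.9 to 611. The score is the authors' own value per peak and its scale is not given, so it is compared only within a list, and read depth is unknown. A gene is termed occupied when an IDR summit (the position that the deposited offset gives within a peak) lay between 1000 bp upstream and 200 bp downstream of any of its annotated 5′ ends. The term does not say that the protein contacts DNA there, and the counts below are descriptions with no test over the gene list.

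Some of the sequences that recur near these summits are shown first. Short motifs were searched within 100 bp of each summit, on both strands, and the letters TGTCAT, the core of the sequence that SKN-1 recognises, were found at 6 of the 12 occupied proteasome genes. All 6 lay within the longer run TTGTCATC, and a seventh occupied gene, pas-6, had that run just outside that range. Each is given 5′ to 3′ on the strand that reads TTGTCATC, with these 8 bases in capitals, from the RefSeq sequence of build ce11 (WBcel235).
rpn-7: tattgcaaacccTTGTCATCatccccgccc
rpt-4: tcagaattgaaaTTGTCATCgtgtccaaca
rpt-2: agcgcgcttgcaTTGTCATCatcaacgctg
rpn-11: cgtaccccgcaaTTGTCATCctcacaattt
pas-6: tactcgcttattTTGTCATCctttcaaatt
rpn-6.1: cgctggcgggaaTTGTCATCgtcattgtct
rpn-2: ctgtggtcagaaTTGTCATCctccgcgatg
The capitals lie at chrIV:9316265-9316272 (+ strand) for rpn-7, chrII:43786-43793 (+) for rpt-4, chrV:6017784-6017791 (-) for rpt-2, chrII:4044514-4044521 (-) for rpn-11, chrV:5584531-5584538 (-) for pas-6, chrIII:6961318-6961325 (-) for rpn-6.1 and chrIII:6198875-6198882 (-) for rpn-2. In 5 of the 7 (rpn-7, rpt-2, rpn-11, rpn-6.1 and rpn-2) the run is followed by any base and then TC, called the longer form below.

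Of the 33 proteasome genes, 12 (36.4%) were occupied, where 8.51% of all protein-coding genes were. The regulatory particle held most of them, with 9 of 19 genes against 3 of 14 in the core particle. This contrast depends on the rule and the cutoff. By the nearest coding 5′ end the counts were 6 of 19 and 3 of 14. In the first 5000 pooled peaks they were 14 of 19 and 9 of 14, and in the whole pooled list 17 of 19 and 14 of 14. Each of the 12 genes had a different peak, and 0 of the 12 summits lay within 500 bp of a gene for a tRNA, snoRNA or snRNA. The same share over all promoter summits is not given here, so this absence is not read as a trait of these genes. The signals ran from 78.9 to 204 with a median of 99.3, below the median of 109 over all 1700 occupied genes, and 4 of the 12 were above that median. Only 4 lay among the 925 IDR peaks of highest signal. The proteasome peaks were thus mostly in the lower part of the IDR list.

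Non-ATPase subunits held the 3 strongest peaks. The highest was upstream of rpn-7, a lid subunit, on chromosome IV from 9316174 to 9316309, with its summit at -387 bp from the closest 5′ end of rpn-7 (negative distances are upstream). It had signal 204 and rank 157 in the IDR list, signal 107 and rank 147 in replicate 2, and signal 96.8 and rank 251 in replicate 3. The summit lay only 29 bp from the 5′ end of the divergent gene F49C12.9, which RefSeq names a UBA domain-containing protein, so that gene rather than rpn-7 was the nearest.

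Next was rpn-3, another lid subunit, on chromosome III from 8447117 to 8447232 with the summit at -217 bp. It had signal 165 and rank 292, with 94.3 and rank 197 in replicate 2 and 68.4 and rank 674 in replicate 3. The same summit lay in the promoter window of hsp-110, the Hsp110 chaperone gene that starts 444 bp away on the other strand. A noncoding RNA gene, C30C11.14, had an end nearer still, at 41 bp. The peaks of rpn-7 and rpn-3 were narrow, 136 and 116 bp wide, where the other 10 were 436 bp wide with the summit position at their middle.

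The third was rpn-13, whose product is a ubiquitin receptor, on chromosome III from 6342040 to 6342475 with the summit at -330 bp. It had signal 132 and rank 533, with 68.8 and rank 490 in replicate 2 and 60.9 and rank 890 in replicate 3. No other coding gene shared this summit. These 3 genes therefore ranked in the first 1000 peaks of every list.

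The summit sequences of rpn-3 and rpn-13 are the strongest whose nearest coding 5′ end is a proteasome gene, and neither holds TTGTCATC. They are shown on the gene's strand with the summit base in capitals, for chrIII:8447096-8447176 and chrIII:6342218-6342298, both outside annotated exons.
rpn-3: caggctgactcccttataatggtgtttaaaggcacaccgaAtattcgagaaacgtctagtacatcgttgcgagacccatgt
rpn-13: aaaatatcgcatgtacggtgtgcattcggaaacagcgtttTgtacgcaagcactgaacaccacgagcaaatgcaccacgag

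The other 3 occupied non-ATPase genes had lower signals. At rpn-11, the metalloprotease that cuts ubiquitin from substrates at the lid, the summit was 2 bp upstream of a 5′ end, with signal 93.3 and rank 1296. The signals were 52.8 in replicate 2 (rank 1001) and 37.3 in replicate 3 (rank 2748). At rpn-6.1, a lid scaffold subunit, signal was 81.3 and rank 1699, with signals 44.3 (rank 1498) in replicate 2 and 47.4 (rank 1627) in replicate 3. That summit lay inside the gene, at -446 bp from an internal 5′ end and 615 bp downstream of the outermost one. At rpn-2, a large scaffold subunit of the base, signal was 78.9 and rank 1803, close to the end of the list, with signals 35.3 (rank 2372) in replicate 2 and 52.1 (rank 1294) in replicate 3.

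The other 7 non-ATPase genes had no IDR summit, and 6 of them had a peak in the pooled list. The peak at rpn-9, a lid subunit, came closest with rank 2052 (signal 74.1). It ranked 1423 in replicate 2 and 5335 in replicate 3. The lid genes rpn-5 (rank 3085, summit 27 bp inside the gene), rpn-8 (3335) and rpn-12 (3552) followed, and then the base scaffold gene rpn-1 (4061). The paralogue rpn-6.2 had rank 24012 and no peak in either replicate list, while its sister gene rpn-6.1 was occupied. At rpn-10, a ubiquitin receptor, no list had a peak in the promoter window. It was the only proteasome gene without one in any of the lists.

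Among the ATPases, 3 of 6 genes were occupied. The signal was 111 at rpt-4 (rank 841), 107 at rpt-2 (rank 938) and 83.7 at rpt-1 (rank 1604). At rpt-4 the signals were 67.1 (rank 526) in replicate 2 and 41.4 (rank 2202) in replicate 3, and at rpt-2 they were 54.5 (rank 932) and 50.6 (rank 1386). At rpt-1 they were 36 (rank 2292) and 42.2 (rank 2136), outside the first 1850 of either replicate. Only rpt-1 had the nearest 5′ end. The rpt-4 summit lay 30 bp from the start of nfyc-1, which encodes a subunit of the CCAAT-binding factor NF-Y, and the rpt-2 summit lay 139 bp from aps-1, a clathrin adaptor gene, against a distance of -162 bp for rpt-2. The rpt-2 summit also lay within a noncoding RNA gene, F29G9.10, whose 5′ end was nearer still, at 20 bp. The rpt-4 summit also lay within the longest annotated form of rpt-4, 2339 bp downstream of its outermost 5′ end.

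Of the remaining ATPase genes, rpt-6 had pooled rank 5382, with a summit at -769 bp and nearer to the histone variant gene his-72, and rpt-5 had rank 27630. The replicates parted at rpt-3. Replicate 2 had a peak there of rank 861 (signal 56.1), at -678 bp. Replicate 3 and the pooled list had no summit in the window, and their nearest summits lay 24522 and 24552 bp from that of replicate 2.

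The core particle had fewer occupied genes. Of 7 alpha subunit genes, pas-4 (signal 105, rank 971) and pas-6 (89.6, rank 1402) were occupied. At pas-4 the summit, at -112 bp, is shared with the window of rpb-3, an RNA polymerase II subunit gene that starts 277 bp away. It also lay within a noncoding RNA gene, C36B1.16, whose 5′ end was at 109 bp. The peak at pas-4 had signal 61.1 (rank 683) in replicate 2 and 38.8 (rank 2532) in replicate 3. The peak at pas-6 went the other way, with signal 33.7 (rank 2600) in replicate 2 and 51.1 (rank 1361) in replicate 3. The 5 other alpha genes had pooled peaks of rank 3231 (pas-3), 3389 (pas-5), 4496 (pas-1), 6264 (pas-7) and 10075 (pas-2). At pas-5 the replicates differed, with rank 815 (signal 62.9) in replicate 3 and 9423 (19.3) in replicate 2, and the summits lay at -988 and -916 bp.

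Of 7 beta subunit genes only pbs-3 was occupied, with signal 84.8, rank 1560 and a summit at -129 bp. Its signals were 37.4 (rank 2138) in replicate 2 and 34 (rank 3431) in replicate 3, outside the first 1850 of both. The summit lay within the body of ulp-2, the gene before pbs-3. Just below the IDR list stood pbs-7 (rank 1917, signal 76.5) and pbs-2 (rank 1952, signal 75.9), the latter one of the catalytic subunits. Both were in the first 1850 of replicate 2, with ranks 1173 and 1550, and outside it in replicate 3, with ranks 2592 and 5763. The last occupied proteasome gene, rpn-2, had signal 78.9, so little separates the genes on either side of the threshold. The other beta genes had ranks 3867 (pbs-4), 6031 (the catalytic pbs-1), 14161 (pbs-6) and 17042 (the catalytic pbs-5).

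**Figure D1:**
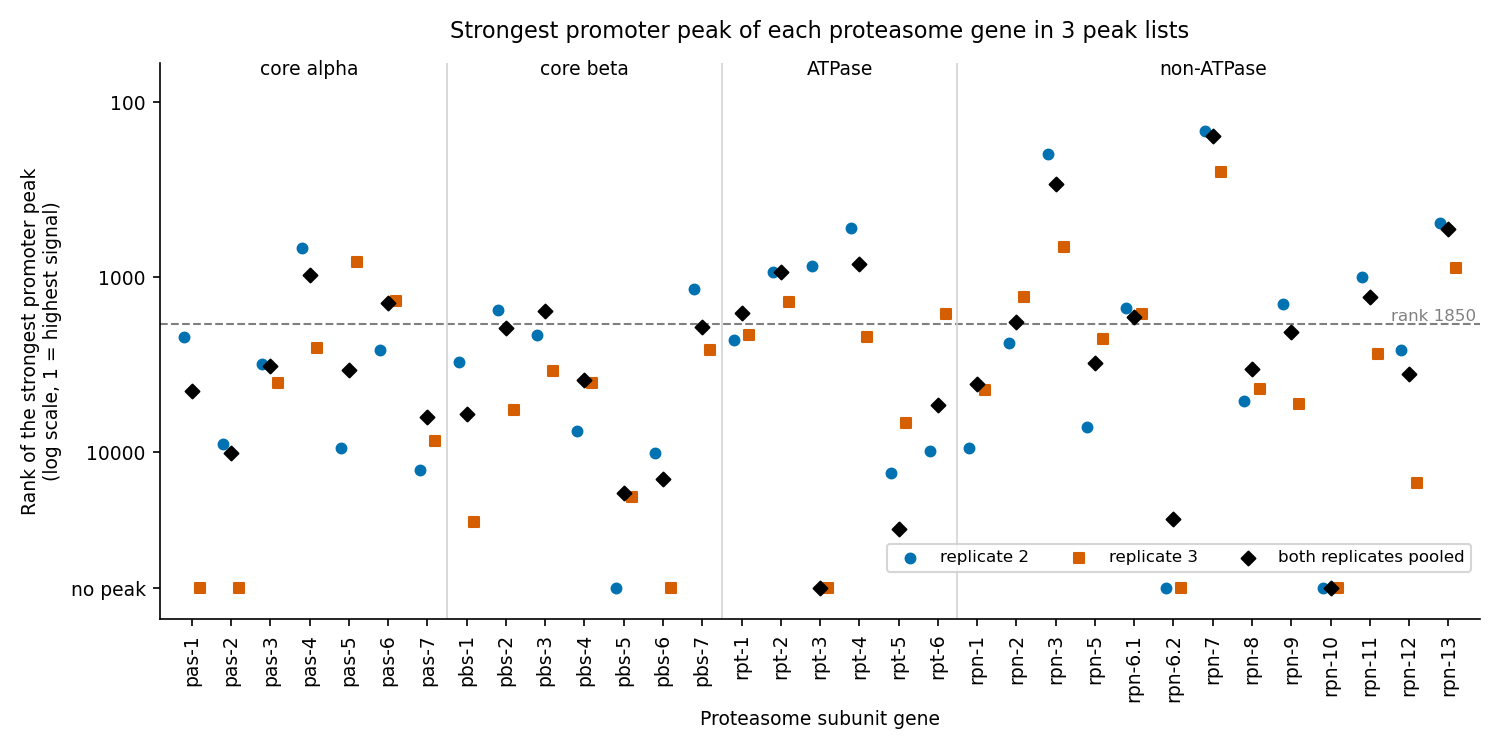
Rank of the strongest peak with its summit in a promoter window, for each of the 33 proteasome genes, in the pooled list and in the replicate 2 and replicate 3 lists (log scale, with rank 1 at the highest signal; genes with no peak are on the bottom line). The 12 pooled points above the dashed line at rank 1850 are the occupied genes, and rpn-10 has no peak in any of the 3 lists.

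The lower part of the pooled list held most of the remaining genes. In all, 31 of 33 proteasome genes (93.9%) had a pooled peak in a promoter window, where 39.2% of all genes did. In the first 3000 pooled peaks 15 proteasome genes (45.5%) had a summit, against 12.4% of all genes, and in the first 5000 there were 23 (69.7%) against 16.8%. Of the 21 unoccupied genes, 9 had their strongest peak at rank 4000 or better, 5 between there and rank 10000, and 5 below. Among genes with any pooled peak in a window the median rank was 3085 for the proteasome genes and 6849 for all 7827 such genes. Peaks past the IDR list did not pass the authors' reproducibility threshold.

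**Figure D2:**
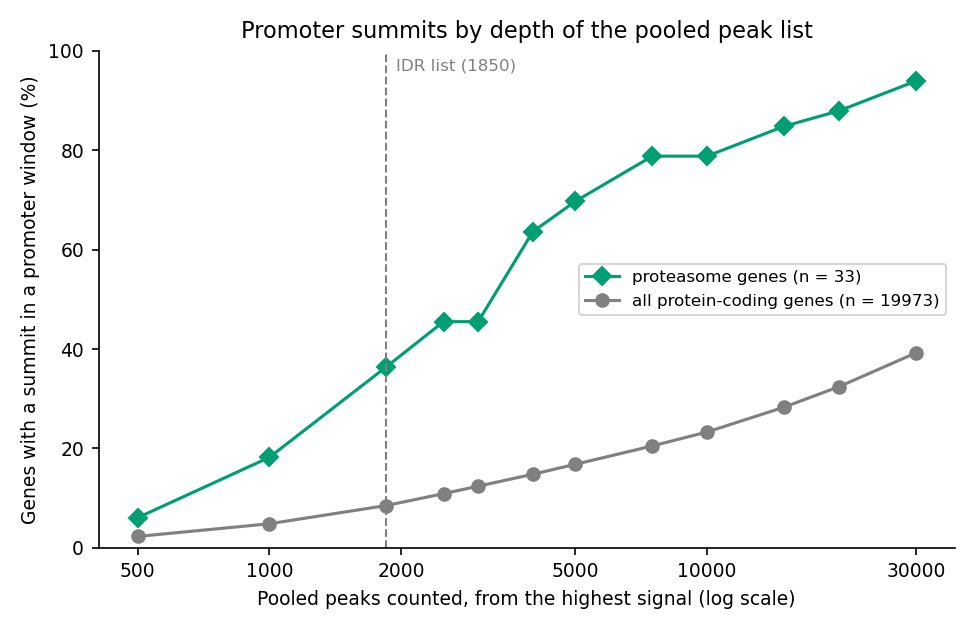
Share of genes with a summit in a promoter window (percent) as more pooled peaks are counted from the highest signal down (log scale), for the 33 proteasome genes and for all 19973 protein-coding genes. At the length of the IDR list the shares are 36.4% and 8.51%, and at 30000 peaks they are 93.9% and 39.2%.

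The replicates placed the 12 peaks alike and ranked them differently. A summit within 100 bp was present in both replicate lists at all 12, the farthest 97 bp away, at rpn-2. The IDR list derives from these replicates, so such matches are partly built in. In replicate 2, 8 of the 12 ranked in the first 1850, in replicate 3 7 did, and 5 (rpn-7, rpn-3, rpn-13, rpt-2 and rpn-6.1) did so in both. Replicate 2 gave the better rank at 9 of the 12 and replicate 3 at pas-6, rpt-1 and rpn-2.

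Over the whole set the first 1850 peaks of replicate 2 reached 12 proteasome genes (36.4%, against 8.9% of all genes). Those of replicate 3 reached 9 (27.3%, against 7.36%), and 5 genes (15.2%, against 5.29%) were reached in both lists. The 12 of replicate 2 are not the 12 of the IDR list: they include rpt-3, pbs-2, pbs-7 and rpn-9 and lack pas-6, pbs-3, rpt-1 and rpn-2. Replicate 3 added pas-5 and rpt-6 and lacked pas-4, pbs-3, rpn-11, rpt-1 and rpt-4. Across the 26 genes with a window peak in both replicates, Spearman's rho of signal was 0.46, a description across genes of the same 2 libraries.

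The distance from the summit to the closest 5′ end ran from -446 bp at rpn-6.1 to -2 bp at rpn-11 with a median of -216 bp. All 12 summits were upstream of that end, which at rpt-4 and rpn-6.1 is an internal one, so these 2 summits lay inside the gene. Over all 1700 occupied genes the median was -238 bp and 94.7% were upstream of the closest end. Within the middle 50% of all occupied genes (-395.2 to -134 bp) lay 7 of the 12.

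Another coding gene had the same summit in its window at 8 of the 12 occupied proteasome genes, and at 3 of them (rpn-7, rpt-4 and rpt-2) its 5′ end was nearer. Over all genes, the 1700 occupied ones lay on 1255 promoter summits, so shared summits are not particular to the proteasome genes. Counting a summit only for the nearest coding 5′ end left 9 of the 12 proteasome genes (27.3% of the 33). The same rule left 1224 of the 1700 (6.13% of all genes). With the 5′ ends of all annotated genes, noncoding ones included, 7 proteasome genes were the nearest. A coding gene starting within 1000 bp on the opposite strand was present at 21 of the 33, and 7 of these 21 (33.3%) were occupied, against 22.5% of all genes with such a neighbour. Without one, 5 of 12 (41.7%) were occupied, against 5.51% of all such genes. These 5 include rpt-4, although its summit lay 30 bp from the start of nfyc-1, which shares that summit. Among the pairs below the IDR list was rpn-12 with rad-23, a gene for a shuttle protein that delivers ubiquitinated proteins to the proteasome, whose 5′ ends are 395 bp apart and share a pooled peak of rank 3552.

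Some proteasome genes follow another gene closely on the same strand, as in the operons common in worms, in which a promoter ahead of the first gene drives all of them. Here 8 genes had a coding gene ending within 500 bp upstream, and 3 of these (37.5%: pbs-3, rpn-11 and rpn-13) were occupied by summits of their own, against 5.81% of all such genes. Of the other 25, 9 (36%) were occupied, against 9.22% of all such genes. For 2 of the unoccupied followers an IDR summit lay at a gene further up the row. K05C4.2, which ends 110 bp before the catalytic subunit gene pbs-5, had a summit of IDR rank 104, placed 65 in replicate 2 and 181 in replicate 3. That summit lies at -1164 bp from pbs-5, outside its window. At pas-1 the summit belonged to rrsr-1, the first of 3 genes in the row (rank 892, signal 109). Whether these genes are transcribed together was not tested. How often a gene earlier in the row has an IDR summit, over all genes close behind another, is not given here. The 2 cases are therefore not read as a trait of the proteasome genes.

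By chromosome, the counts of proteasome genes were set beside those of all genes. On chromosome I, 1 of 10 (10%) was occupied, where 11.7% of all genes there were. The counts were 3 of 7 (42.9%) on chromosome II, against 8.26%, and 4 of 8 (50%) on III, against 12.6%. They were 1 of 3 (33.3%) on IV, against 8.02%, and 3 of 5 (60%) on V, against 4.79%. The X chromosome has no proteasome gene.

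Of the 9 motifs searched, TGTCAT was singled out after the values were seen. It was within 100 bp of 6 of the 12 summits (50%), where 7.09% of all 1255 IDR summits in promoters held it. Equally long windows centred at -216 bp, the median distance, at every coding gene held it in 10.3%, and those of the 21 unoccupied proteasome genes in 3 (14.3%). Within 50 bp of the summit 3 of the 12 (25%) held it, against 3.27% of all promoter summits. In the 500 bp upstream of the outermost 5′ end, a window placed by no summit, 11 of the 33 proteasome genes (33.3%) held it against 22.9% of all genes. TATCAT, the A form of the SKN-1 core, was in none of the 12, in 4 (19%) of the 21 others and in 5.58% of all promoter summits. GAGAGA, a repeat present at 35.2% of all promoter summits, was in none of the 12 either. TTCCCGC, an E2F-like sequence, was in 3 (rpn-2, rpn-6.1 and rpn-11) against 4.78%, and GCGCGC in 2 (16.7%), the same share as in all promoter summits. TGACGT, the CRE core, and the E-box CACGTG were in none, against 8.13% and 3.75%. TATAAA, the TATA box, was in 1 (8.33%) against 13.8%, and the T tract TTTTTT in 10 (83.3%) against 57.3%. Within 50 bp of the summit TTTTTT was in 3 of the 12 (25%) against 24.5% of all promoter summits, and TTCCCGC in 0 against 2.95%. Median GC content was 37.6% in the 12 windows and 42.8% in all promoter summits.

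**Figure D3:**
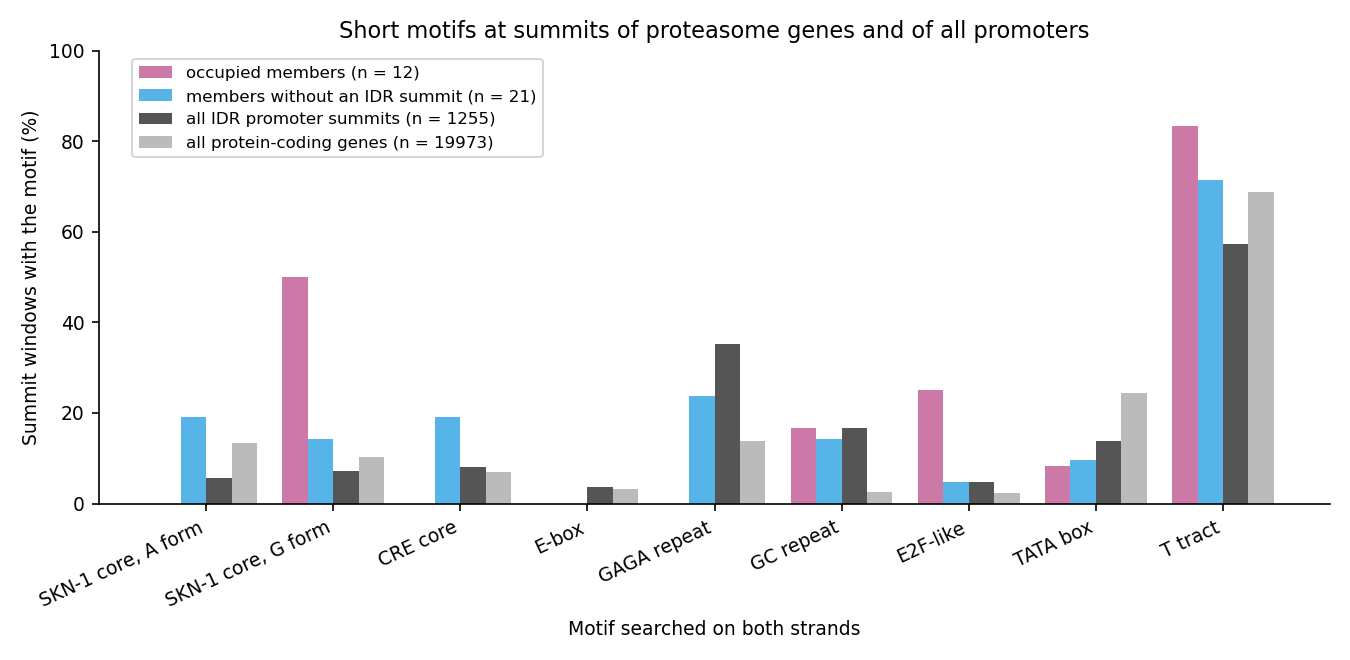
Share of windows reaching 100 bp to each side (percent) that hold each of 9 motifs on either strand, at the 12 occupied proteasome genes, the 21 others, all 1255 IDR summits in promoters and all 19973 protein-coding genes. The G form of the SKN-1 core, TGTCAT, is in 50% of the first set and in 7.09% of all promoter summits.

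The longer run TTGTCATC was chosen after the 6 proteasome sites with TGTCAT had been read. Its count at these 6 genes, and its being rarer elsewhere, were therefore set in part by that choice. Only 15 of the 1255 promoter summits (1.2%) held it within 100 bp, and 6 of these 15 were at proteasome genes. In the whole promoter windows, 13 of 33 proteasome genes (39.4%) held it, 8 of the 12 occupied and 5 of the 21 others, where 7.27% of all genes and 7.88% of all occupied genes did. The 13 and the 8 both include the 6 genes from which the run was read. None of the 10 genes on chromosome I held it, against 6.74% of all genes there, so few would be looked for among 10. The counts were 3 of 7 on II (6.73% of all genes there) and 3 of 8 on III (7.01%). They were 3 of 3 on IV (8.26%) and 4 of 5 on V (7.01%). These counts also include the 6 genes from which the run was read. The longer form was likewise read from the 5 proteasome genes that carry it, so its count among them was set by that choice. It was in the promoter windows of 145 genes in all (0.726%). Genes with several 5′ ends have more windowed sequence. A match is a run of letters, and no SKN-1 binding was measured here.

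The sites lay downstream of the summit in the direction in which the proteasome gene is transcribed. At the 6 genes with a site within 100 bp, it was 24 bp (rpn-7), 31 bp (rpn-11), 44 bp (rpt-2), 58 bp (rpn-2), 65 bp (rpn-6.1) and 88 bp (rpt-4) downstream of the summit in that direction. At rpn-6.1 and rpt-4 both summit and site lie inside the gene, before an internal 5′ end. At pas-6 the summit was at -99 bp from its site. The site reads on the strand of the gene at rpn-7, rpn-11, rpt-2, rpn-6.1 and pas-6, and on the opposite strand at rpn-2 and rpt-4. Below the IDR list, pas-1, pas-2, pbs-1 and rpn-1 also had a site with a pooled summit on its upstream side, at -87, -45, -76 and -127 bp. At pbs-3 and pbs-6 no pooled summit lay within 150 bp of the site. The sites of rpn-11 and pbs-3 lie 29 and 187 bp past the 5′ end, so they are downstream of any summit ahead of it. At rpn-7, rpt-2 and rpt-4 another gene had the nearest 5′ end, and the direction is that of the proteasome gene. The same holds for the pooled summits of pas-1 (nearest to rpoa-12) and pas-2 (nearest to D1054.1), where replicate 3 had no window peak. At pbs-1 the strongest window peak of replicate 3 was at -491 bp, against -218 bp in the pooled list. At rpn-1 both replicates had a window peak, at -407 and -350 bp. The side of the site at other summits is not given here.

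**Figure D4:**
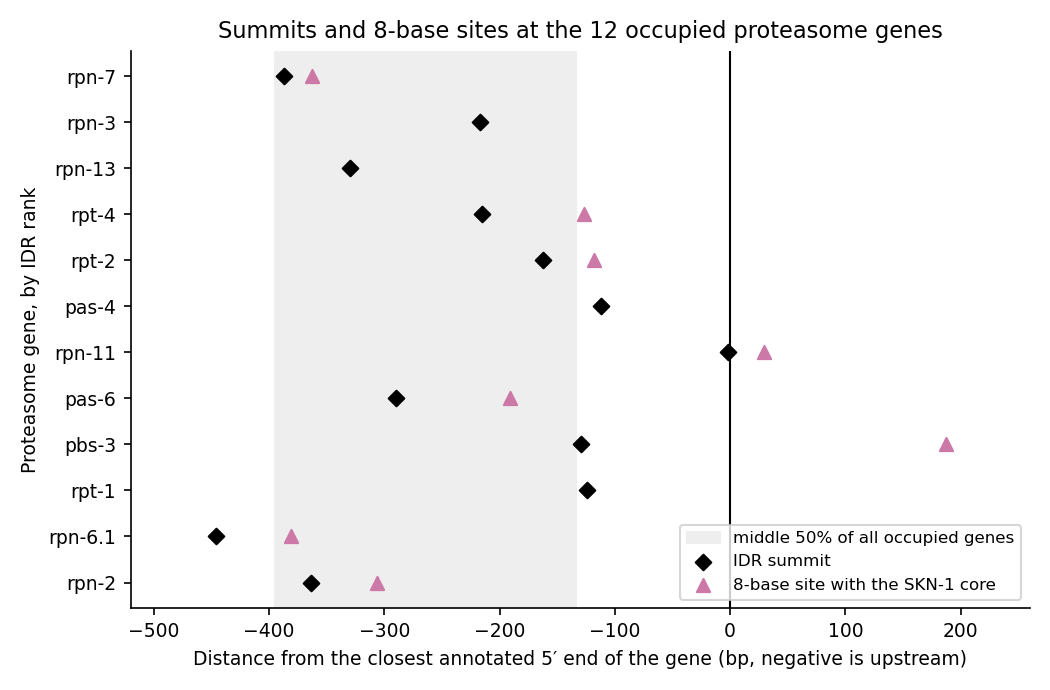
Distance in bp from the closest annotated 5′ end to the IDR summit (diamonds) and to each 8-base site TTGTCATC in the promoter windows (triangles) at the 12 occupied proteasome genes, ordered by IDR rank. At all 8 genes with a site it lies downstream of the summit in the gene's direction of transcription. At rpn-11 and pbs-3 the site is past the 5′ end, where any upstream summit would have it downstream. At rpt-4 and rpn-6.1 the 5′ end is an internal one, and the grey band is the middle 50% of summit distances over all occupied genes.

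A list of 26 other genes was drawn up for the ubiquitin and proteasome pathway. It also holds genes outside that pathway, such as the chaperone gene hsp-110. Of the 26, 6 (23.1%, hsp-110 included) had an IDR summit, against 8.51% of all protein-coding genes. By the nearest coding 5′ end 4 of the 26 did, against 6.13% of all genes. The hsp-110 summit is nearer to rpn-3, already counted above, and the ubq-2 summit is nearer to frg-1. The strongest was cdc-48.1, the AAA ATPase that extracts ubiquitinated proteins from complexes, with signal 376, rank 15 (12 in replicate 2 and 23 in replicate 3) and the longer form near its summit. It was followed by hsp-110 with the peak of rpn-3, and ufd-3, a cofactor of CDC-48, with signal 114 and rank 790. Then came ubql-1, a ubiquilin shuttle gene (104, rank 993), ubq-2, a gene for ubiquitin fused to a ribosomal protein (103, rank 1030), and aip-1, a stress-induced gene for a proteasome-associated protein (102, rank 1067). The deubiquitinase gene ubh-4 (rank 1890) and the ligase gene ufd-2 (rank 1883) lay just past the end of the IDR list.

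The genes that activate SKN-1 at an impaired proteasome, png-1 and ddi-1, had no pooled peak in a promoter window, and skn-1 itself had one of rank 12107. The lid subunit gene dss-1, which carries a name outside the rule, had none either. TTGTCATC was near the summits of cdc-48.1 and ufd-3, and, among genes named after their values were seen, of wdr-23, whose product is a repressor of SKN-1 (signal 94.5, rank 1267), and of K05C4.2 upstream of pbs-5. The remaining promoter summits with it belong to neither list. They were nearest to mtss-1 (signal 215, rank 137), unc-85 (153, rank 350), F16B12.6 (114, rank 783), dmd-7 (90.6, rank 1372) and rabr-1 (84.3, rank 1580, with the longer form).

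Of 6 genes of the COP9 signalosome, a complex whose subunits are related to those of the lid, 1 (16.7%) was occupied, csn-1 (signal 102, rank 1049), against 8.51% of all protein-coding genes. Its summit lay at -613 bp and nearer to phf-14. Next was csn-5 at pooled rank 2422, with rank 1769 in replicate 3 and 14083 in replicate 2.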

How the data were processed

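Peaks of GFP-tagged F13C5.2 in early embryos were deposited by the authors as lists on builds ce10 and ce11; the ce11 lists of replicates 2 and 3, the pooled list and the optimal IDR list were used, and the ce10 lists were not analysed here. Each peak has a signal score assigned by the authors' caller and a −log10 q-value, per the deposited files. The deposited descriptions list 2 control alignments behind the peaks. For the caller, the aligner and the IDR cutoff, names and values were not given in the sources used here. Because the −log10 q-value was at its maximum of 3.53 for 10 of the 12 peaks described, and for 1692 of the 1850 IDR peaks, ranks follow the score. The summit is the peak start plus the deposited offset.

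Genes are those of Ensembl release 115 (WBcel235, the ce11 assembly), and sequence is RefSeq's of the same assembly. Promoter windows reached from 1000 bp upstream to 200 bp downstream of every 5′ end of a protein-coding transcript. Shares of members are set beside the same share over all 19973 protein-coding genes, with no test, since there is 1 group and the members are not replicates. Members were picked by a rule on gene names that used no measured value. That rule, the lists and the motifs were set with earlier results of these data known. Every member is named, with the genes of the pathway list that had an IDR summit. F49C12.9, K05C4.2, rrsr-1, wdr-23, the other genes with TTGTCATC near a summit and the sequences around TTGTCATC were chosen after values were seen. The code was tested on planted summits, with Python 3.11.15, numpy 2.4.6, scipy 1.17.1 and matplotlib 3.10.9. Other windows, lists and matching rules were tried.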

Additional observations from a re-analysis of the deposited data

How the results depend on the processing

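The count of 12 occupied proteasome genes ranged from 9 to 15 under other windows, the outermost 5′ end, any overlap, nearest 5′ ends and 3000 pooled peaks. With single replicates it ranged from 9 to 12. The share of all genes ran from 6.13% (nearest 5′ ends) to 12.4% (3000 pooled peaks), and was 7.36% and 8.9% with single replicates. In the main setting it was 8.51%. With the 925 IDR peaks of higher signal the count was 4 of 33, where 4.46% of all genes were occupied. These were 0 alpha, 0 beta, 1 ATPase and 3 non-ATPase genes. In that shorter list there were also 1 gene close behind another, 3 genes of the pathway list, 0 COP9 genes and 2 proteasome genes with the nearest 5′ end. These counts are of few genes: beta genes numbered 2 with the longer upstream window and 3 with 3000 pooled peaks, and 0 to 2 with single replicates. Alpha genes numbered 1 to 2 with single replicates, ATPase genes 1 with nearest 5′ ends, and genes close behind another 1 to 3 with single replicates and 1 with a limit of 200 bp. COP9 genes numbered 0 with the window of 500 bp upstream or nearest 5′ ends, 2 with 3000 pooled peaks, and 1 to 2 with single replicates. Both replicates ranked 5 of the 12 peaks in their first 1850. Median distance was -239 to -332 bp with single replicates, and median signal 89.6 over genes with the nearest 5′ end. TGTCAT and TTGTCATC, each at 6 genes, were at 3 with the narrower and 7 with the wider search around the summit, and any of the 9 motifs went from 12 to 5 genes with the narrower one, where TTTTTT went from 10 to 3 and TTCCCGC from 3 to 0. In 500 bp upstream of the outermost 5′ end, windows placed by no summit and chosen after the data were seen, TGTCAT was at 11 of 33 proteasome genes (33.3%) and 22.9% of all genes. The cause of these moves was not tested. No paired analysis was possible because the series has 1 group. Read depth is unknown.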
